A study of Mus musculus with 10 samples.

Results

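The proteasome is the protease that breaks down ubiquitin-tagged proteins in the cytosol and nucleus, and its transcripts were measured here in mouse hippocampus. Genes were taken by symbol, as rows whose name starts with Psma, Psmb, Psmc, Psmd or Psme followed by a digit, leaving out Psmb8 and Psmb9. This gave 43 of the 20156 gene rows of the count table, of which 41 passed the filter on low counts. By role, 41 of the 43 encode subunits, assembly chaperones or activators. The other 2, Psmc3ip and Psme2b (a close copy of Psme2), were assigned no role and are given apart. The groups were 5 TfamAKO mice and 5 wild-type (WT) mice, all at 6 months of age, with 1 hippocampal library per mouse. The product of Tfam coats mitochondrial DNA and drives its transcription. The series title places the study in astrocytic mitochondria, while the labels name no Cre driver, no deleted exon, and neither sex nor litter. Since whole hippocampus was sequenced, a change in the number of cells of a type and a change in the RNA of each cell cannot be told apart.

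The proteasome core is a barrel of stacked rings. The outer rings are built from alpha subunits (Psma genes), which gate the entrance, and the inner rings from beta subunits (Psmb genes), of which Psmb5, Psmb6 and Psmb7 encode the proteolytic sites. The regulatory cap (Psmc and Psmd genes) binds tagged proteins, removes the ubiquitin, and unfolds and feeds them in through a ring of ATPases. In cells exposed to interferon, Psmb8, Psmb9 and Psmb10 take the place of Psmb5, Psmb6 and Psmb7, and the product is called the immunoproteasome. The Psme genes encode activators that can dock in place of the cap. When proteasome activity falls short, the transcription factor encoded by Nfe2l1 is known to raise the subunit genes together through antioxidant response elements.

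Libraries held 19558377 to 28675367 counts in TfamAKO and 16584245 to 26032470 counts in WT. Tfam itself was at 23.6, 22.7, 19.6, 23.1 and 23.4 CPM in TfamAKO 1 to 5 and 31.7, 33.0, 20.6, 32.5 and 30.4 CPM in WT 1 to 5, and it fell (log2 fold change -0.40 ± 0.12, edgeR adjusted p = 0.0204), although WT 3 lay inside the TfamAKO range. Its call was lost without TfamAKO 3 (edgeR adjusted p = 0.0554), WT 2 (0.0580) or WT 4 (0.0504). It was also lost without TfamAKO 4 and 5 (0.0524) and in the authors' normalized values. Kdm5d, a Y-linked gene, was at 22.7 CPM in TfamAKO 4 and 22.4 CPM in TfamAKO 5 and under 1 CPM in the other 8 libraries, so sex is not balanced between the genotypes. Summed choroid plexus markers reached 2795 to 5648 CPM in WT 3, 4 and 5, against 33.5 to 161 CPM in the other 7 libraries. Of the listed cell markers, 6 of 7 microglia and macrophage genes were higher and 5 of 7 neuron genes were lower. Of the astrocyte genes, 4 of 7 were higher and 1 lower. Over all genes tested, 20.8% were higher and 16.6% lower. All markers of hippocampal neurons on the list, among them Prox1 and Neurod2, were detected in every library. A level given in CPM is the count scaled to the effective library size. A log2 fold change is TfamAKO over WT with its standard error. A gene is said to rise or fall where its edgeR p-value, adjusted over all 16180 genes tested, is at most 0.05.

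Most proteasome transcripts kept to a narrow band while much of the hippocampal transcriptome differed. Of the 41 genes tested, 1 rose (Psme2) and 4 fell (Psmc4, Psmc5, Psmd7 and Psmd12), which is 12.2% of them. Over all genes tested, 37.4% passed, 20.8% higher and 16.6% lower. The median log2 fold change of the 41 was 0.04, with the middle of their distribution (25th to 75th percentile) between -0.08 and 0.10. For all tested genes the median was -0.02 and the same percentiles were -0.25 and 0.26. Together the 41 genes made up 3002 ± 126 CPM in TfamAKO and 2967 ± 66.8 CPM in WT (SD, n = 5 each), and the ranges of the groups overlapped. At an unadjusted p of at most 0.05, 12 of the 41 genes and 7575 of all genes tested passed.

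**Figure D1:**
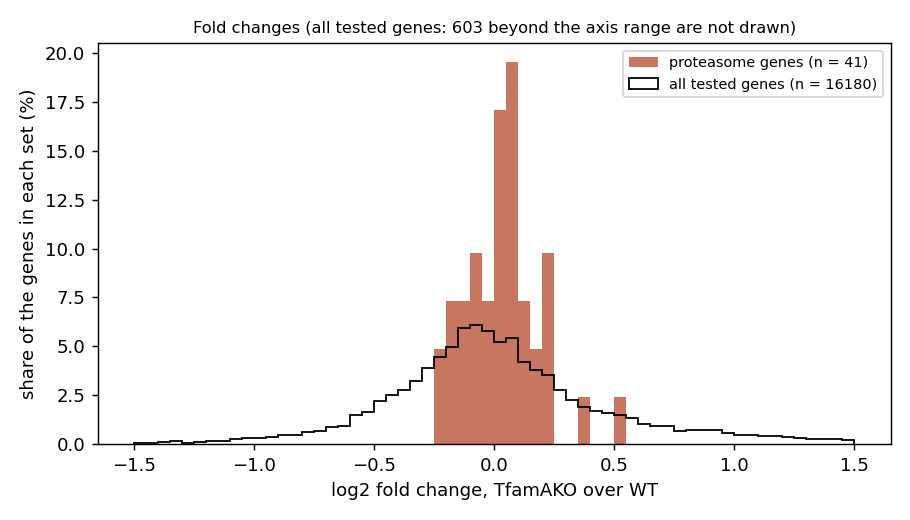
Distribution of log2 fold changes (TfamAKO over WT) for the 41 tested proteasome genes (filled) and all 16180 tested genes (outline), as a percentage of each set per bin of 0.05. The 41 genes lie between -0.24 (Psmc3ip, which is no subunit) and 0.51 (Psme2), while 603 of all genes lie more than 1.5 from 0 and are not drawn.

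Intervals give the size of change that the data leave possible. The 95% interval of the log2 fold change lay wholly within 0.32 of 0, a rise of 25% or a fall of 20%, for 32 of the 41 genes, or 78.0%. Over all genes tested this held for 23.8%. Proteasome genes are abundant, with a median of 6.10 on the log2 CPM scale against 4.36 for all tested genes, and their median standard error was 0.06 against 0.12. They also varied little between mice of a genotype, with a median coefficient of variation of 6.92% in TfamAKO and 4.88% in WT, where all tested genes had 13.5% in TfamAKO and 10.8% in WT. The CPM ranges of the genotypes did not overlap for 6 of the 41 genes (14.6%), against 23.9% of all genes tested. These 6 were Psme2, which lay higher in TfamAKO, and Psmc3, Psmc4, Psmc5, Psmd7 and Psmd12, which lay lower.

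The count of higher genes depended on single libraries. It was 5 without TfamAKO 1 and 7 without TfamAKO 5, of 41 tested in each fit. In these fits 43% and 40.1% of all genes passed in either direction, with 3800 of 16492 and 3535 of 16169 higher. It was 2 of 42 without WT 1 and 3 of 41 without WT 2. There 33.7% and 35.1% of all genes passed in either direction, with 3221 of 16497 and 3428 of 16196 higher. The genes gained in this way were Psma3, Psma6, Psmb2, Psmb3, Psmd2 and Psme1, and all of them had positive fold changes with all libraries in. Without TfamAKO 4 and 5, the pair with Kdm5d, 2 genes rose and 3 fell, while 30.2% of all genes passed. With the 3 WT libraries rich in choroid plexus markers left out, 1 rose and 0 fell of 42 tested, where 16.5% of all genes passed. That fit has only 2 WT libraries.

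**Figure D2:**
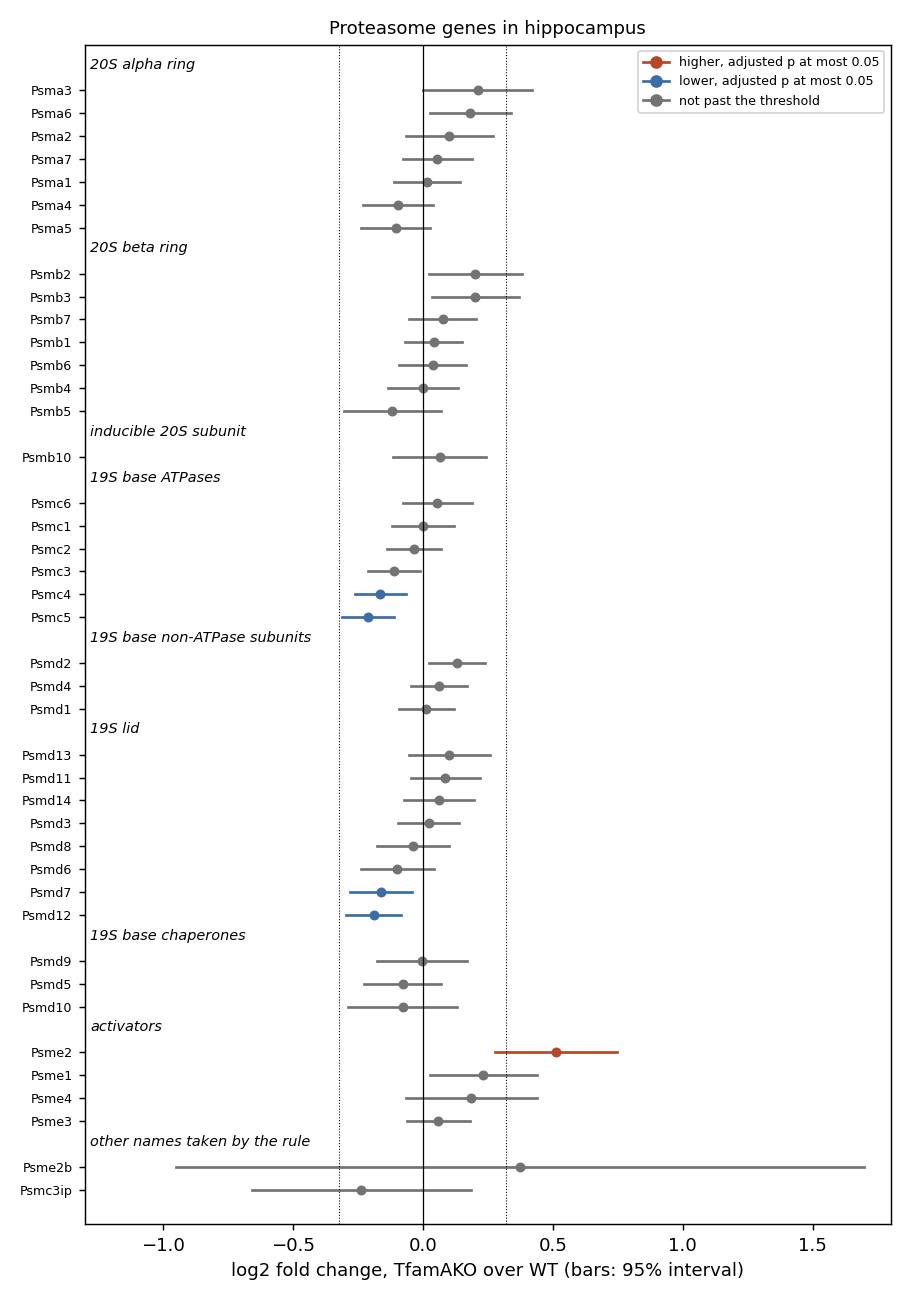
Log2 fold change (TfamAKO over WT, horizontal axis) of the 41 tested genes by role, with 95% intervals. Dotted lines mark a rise of 25% and a fall of 20%. Of these genes only Psme2 (red) rose while Psmc5, Psmc4, Psmd12 and Psmd7 (blue) fell.

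None of the 14 constitutive subunits of the core barrel passed the threshold, although 2 of the alpha ring and 2 of the beta ring had unadjusted intervals above 0. In the alpha ring, 5 of 7 genes had positive fold changes (median 0.06). The smallest adjusted p were those of Psma6 (0.0641), Psma3 (0.106) and Psma5 (0.195). Psma6 was at 63.5, 76.2, 71.8, 72.1 and 60.2 CPM in TfamAKO 1 to 5 and 64.1, 57.9, 58.1, 63.7 and 59.3 CPM in WT 1 to 5. In TfamAKO 2, 3 and 4 it stood above every WT library, and in TfamAKO 1 and 5 within the WT range. The log2 fold change was 0.18 ± 0.07 (95% interval 0.03 to 0.34). Psma3 was at 65.2, 81.9, 83.4, 79.4 and 63.9 CPM in TfamAKO 1 to 5 and 67.7, 74.6, 63.2, 60.1 and 57.4 CPM in WT 1 to 5. The same 3 TfamAKO libraries were above all WT libraries, and the log2 fold change was 0.21 ± 0.10 (95% interval 0.00 to 0.42). Psma5 was at 48.4, 48.6, 42.8, 46.7 and 43.0 CPM in TfamAKO 1 to 5 and 52.0, 46.6, 48.5, 51.4 and 48.3 CPM in WT 1 to 5, with overlapping groups and a log2 fold change of -0.10 ± 0.06. The other alpha genes, Psma1, Psma2, Psma4 and Psma7, had log2 fold changes between -0.10 and 0.10.

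In the beta ring, 6 of 7 genes had positive fold changes (median 0.04), and the adjusted p closest to the threshold was that of Psmb3 (0.0561). This structural subunit was at 47.1, 61.2, 57.2, 60.5 and 51.6 CPM in TfamAKO 1 to 5 and 49.5, 50.4, 45.5, 47.0 and 49.1 CPM in WT 1 to 5. TfamAKO 2 to 5 lay above every WT library and TfamAKO 1 inside the WT range, for a log2 fold change of 0.20 ± 0.08 (95% interval 0.03 to 0.37). Psmb2, another structural subunit, was at 44.0, 48.6, 47.7, 53.8 and 41.0 CPM in TfamAKO 1 to 5 and 45.4, 37.1, 41.6, 38.7 and 41.6 CPM in WT 1 to 5. Here TfamAKO 1 and 5 lay inside the WT range, and the log2 fold change was 0.20 ± 0.08 (edgeR adjusted p = 0.0723). Psmb5, which encodes the chymotrypsin-like site, was at 86.0, 85.9, 83.1, 97.8 and 67.5 CPM in TfamAKO 1 to 5 and 99.3, 90.4, 88.6, 91.7 and 86.2 CPM in WT 1 to 5. Its lowest library was TfamAKO 5, the highest WT 1, and the log2 fold change of -0.12 ± 0.09 did not pass (edgeR adjusted p = 0.300, 95% interval -0.30 to 0.07). The genes of the caspase-like site (Psmb6) and the trypsin-like site (Psmb7), with the structural genes Psmb1 and Psmb4, had log2 fold changes between 0.00 and 0.08, and none passed.

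Levels between genes are compared per kb of transcript, using the longest coding transcript of each symbol in GENCODE M21, which may not be the isoform the hippocampus uses. On this scale the beta ring had a median of 86.9 CPM per kb in TfamAKO and 82.4 CPM per kb in WT, and the alpha ring 47.4 and 46.9 CPM per kb in the same order. Within the beta ring, WT levels spanned 2.25-fold, with Psmb5 on top (93.5 CPM per kb in TfamAKO and 101 CPM per kb in WT) and Psmb1 at the bottom (46.4 CPM per kb in TfamAKO and 45.1 CPM per kb in WT). The ATPases of the cap had medians of 61.0 CPM per kb in TfamAKO and 66.8 CPM per kb in WT. Its lid had 38.0 and its assembly chaperones 8.75 CPM per kb in TfamAKO, against 37.6 and 8.77 CPM per kb in WT. Psmd5, Psmd9 and Psmd10, the chaperones, were thus the least abundant of the constitutive genes, in both genotypes. The activator Psme4 was lower still (6.79 CPM per kb in TfamAKO and 5.98 CPM per kb in WT).

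**Figure D3:**
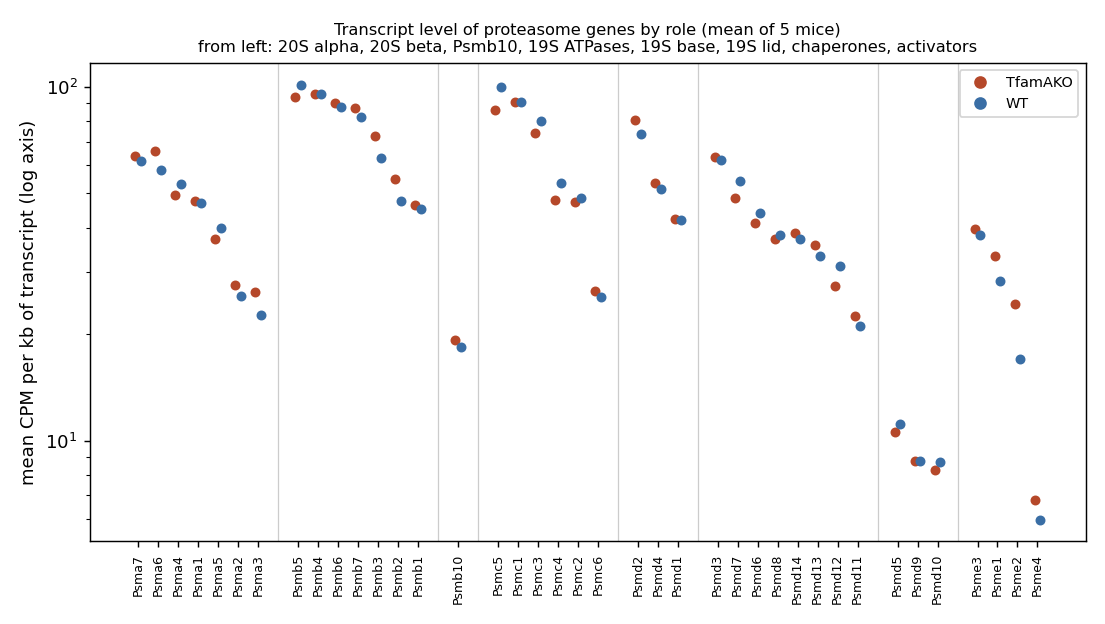
Mean CPM per kb of transcript (log axis, mean of 5 mice) for 39 tested genes by role, TfamAKO in red at the left and WT in blue at the right of each pair. The genotypes nearly coincide for most genes, and the gap is widest for Psme2 at 24.3 CPM per kb in TfamAKO and 17.1 CPM per kb in WT.

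The 4 genes that fell belong to the ATPase ring and the lid of the regulatory cap, in which most genes did not pass. Of the 6 ATPase genes, 2 fell and 0 rose (median log2 fold change -0.07), where 16.6% of all genes tested fell. Psmc5 was at 111, 116, 109, 116 and 116 CPM in TfamAKO 1 to 5 and 137, 133, 129, 132 and 126 CPM in WT 1 to 5. Every TfamAKO library lay below every WT library, and the level fell by 13.7% (log2 fold change -0.21 ± 0.05, edgeR adjusted p = 0.00400). Psmc4 was at 69.8, 68.6, 69.2, 66.6 and 70.4 CPM in TfamAKO 1 to 5 and 80.8, 76.5, 77.5, 75.6 and 75.8 CPM in WT 1 to 5. Again the groups did not overlap, and the level fell by 10.8% (log2 fold change -0.16 ± 0.05, edgeR adjusted p = 0.0140). Psmc3 was at 137, 136, 129.9, 139.7 and 130.5 CPM in TfamAKO 1 to 5 and 146, 150.3, 144, 146 and 141 CPM in WT 1 to 5. Its groups did not overlap either, with TfamAKO 4 just under WT 5, but its log2 fold change of -0.11 ± 0.05 did not pass (edgeR adjusted p = 0.0741). It passed with upper-quartile scaling (adjusted p = 0.0297) and with DESeq2 (0.0375). The remaining ATPases of the ring, Psmc1, Psmc2 and Psmc6, had log2 fold changes between -0.04 and 0.06.

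In the lid, which holds the deubiquitinase encoded by Psmd14, 2 of 8 genes fell and 0 rose. Over all genes tested, 16.6% fell and 20.8% rose. Of the lid genes, 4 of 8 had positive fold changes (median log2 fold change -0.01). Psmd12, a scaffold subunit, was at 54.6, 51.3, 55.8, 54.7 and 50.9 CPM in TfamAKO 1 to 5 and 62.1, 61.9, 59.8, 60.4 and 60.6 CPM in WT 1 to 5. All TfamAKO libraries lay below all WT libraries (log2 fold change -0.19 ± 0.05, edgeR adjusted p = 0.0102). Psmd7, which encodes the partner of the deubiquitinase, was at 81.0, 75.2, 78.3, 80.4 and 68.9 CPM in TfamAKO 1 to 5 and 88.6, 86.3, 82.9, 86.5 and 85.0 CPM in WT 1 to 5. The groups did not overlap, TfamAKO 5 was the lowest, and the gene fell (log2 fold change -0.16 ± 0.06, edgeR adjusted p = 0.0368). Without WT 3, 4 and 5, the 4 genes that fell did not pass. The log2 fold changes were then -0.23 for Psmc5, -0.16 for Psmc4, -0.19 for Psmd12 and -0.16 for Psmd7, with edgeR adjusted p from 0.0654 to 0.202. Psmd7 passed in 10 of 23 alternatives, and Psmc4, Psmc5 and Psmd12 in 22 each. For Psmd7 the call was lost without any one of TfamAKO 2, 3 or 5 or WT 1, 2, 4 or 5, with edgeR adjusted p from 0.0503 (WT 5 out) to 0.0843 (TfamAKO 2 out). Psmd6, the next by p, was at 61.3, 57.5, 56.1, 59.6 and 50.7 CPM in TfamAKO 1 to 5 and 66.0, 56.4, 60.3, 60.9 and 61.9 CPM in WT 1 to 5, with overlapping groups (log2 fold change -0.10 ± 0.06, edgeR adjusted p = 0.250). The other lid genes, Psmd3, Psmd8, Psmd11, Psmd13 and Psmd14, had log2 fold changes between -0.04 and 0.10, and none passed. Neuron markers moved in the same direction as the 4 genes that fell, with a summed level of 4599 to 5364 CPM in TfamAKO and 6031 to 6519 CPM in WT, and none of these 7 markers was at 0 in any library. Of the markers of hippocampal neurons, 1 of 6 was lower, where 16.6% of all genes tested fell. Their summed level overlapped, at 492 to 751 CPM in TfamAKO and 648 to 819 CPM in WT. Their part in the lower levels was not tested.

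The promoter windows of 3 of the 4 genes that fell are shown to set the genes that fell beside each other. They come from RefSeq on GRCm38.p6 and run from 250 bases before to 50 bases after the start site, 5′ to 3′ on the gene's strand. The sources used here do not name the build behind the count table. Capitals mark matches on either strand to the antioxidant response element core (TGANNNNGC), the gamma-activated sequence of STAT factors (TTCNNNGAA) or the core of the interferon-stimulated response element (GAAA, any 2 bases, GAAA).
Psmc5 (chr11:106255935-106256234, plus strand): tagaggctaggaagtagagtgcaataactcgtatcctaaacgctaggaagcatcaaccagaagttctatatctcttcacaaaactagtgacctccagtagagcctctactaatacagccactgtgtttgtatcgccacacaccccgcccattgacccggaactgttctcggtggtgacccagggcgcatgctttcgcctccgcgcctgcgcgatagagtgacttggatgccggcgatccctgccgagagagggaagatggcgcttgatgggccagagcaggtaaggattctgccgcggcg
Psmc4 (chr7:28050043-28050342, minus strand): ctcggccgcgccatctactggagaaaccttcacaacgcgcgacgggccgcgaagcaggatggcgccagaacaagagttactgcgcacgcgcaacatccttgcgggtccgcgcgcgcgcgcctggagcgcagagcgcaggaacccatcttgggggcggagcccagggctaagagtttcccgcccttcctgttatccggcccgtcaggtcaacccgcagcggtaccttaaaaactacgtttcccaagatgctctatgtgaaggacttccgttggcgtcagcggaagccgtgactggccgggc
Psmd12 (chr11:107479278-107479577, plus strand): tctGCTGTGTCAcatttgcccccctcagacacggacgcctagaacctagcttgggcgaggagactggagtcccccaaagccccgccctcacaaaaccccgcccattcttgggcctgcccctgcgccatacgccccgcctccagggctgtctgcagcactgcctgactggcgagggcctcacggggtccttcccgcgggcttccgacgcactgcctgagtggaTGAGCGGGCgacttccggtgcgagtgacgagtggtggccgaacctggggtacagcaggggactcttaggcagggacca

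The Psmc5 and Psmc4 windows held no match to the 3 motifs, and the Psmd12 window held 2 to the antioxidant response element core. No matches overlapped in the windows printed here.

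The non-ATPase subunits of the base of the cap did not pass. Psmd2 and Psmd1 encode large scaffolds that dock ubiquitin-binding proteins, and Psmd4 encodes a ubiquitin receptor. Psmd2 was at 232, 245, 251, 244 and 225 CPM in TfamAKO 1 to 5 and 212, 214, 213, 223 and 230.0 CPM in WT 1 to 5. In TfamAKO 1, 2, 3 and 4 it lay above all WT libraries, and in TfamAKO 5 inside the WT range (log2 fold change 0.13 ± 0.05, edgeR adjusted p = 0.0578). It passed with DESeq2 (adjusted p = 0.0402) and in edgeR without TfamAKO 1 (0.0437) or TfamAKO 5 (0.0248). Psmd4 was at 91.0, 95.1, 94.5, 97.3 and 92.1 CPM in TfamAKO 1 to 5 and 93.6, 91.3, 93.8, 86.6 and 85.2 CPM in WT 1 to 5, and its groups overlapped (log2 fold change 0.06 ± 0.05). Psmd1 was at 134, 129.8, 133, 138 and 123 CPM in TfamAKO 1 to 5 and 132, 131, 125, 134 and 130.5 CPM in WT 1 to 5, with a log2 fold change of 0.01 ± 0.05 and a 95% interval of -0.09 to 0.12.

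The chaperones that assemble the base did not pass, and the 95% interval of each lay within 0.32 of 0 on the log2 scale. Psmd5 was at 46.3, 45.1, 46.3, 44.1 and 50.6 CPM in TfamAKO 1 to 5 and 45.1, 45.4, 48.5, 52.6 and 53.7 CPM in WT 1 to 5 (log2 fold change -0.08 ± 0.07). Psmd9 was at 19.9, 26.0, 21.8, 22.5 and 23.4 CPM in TfamAKO 1 to 5 and 21.9, 21.4, 23.9, 23.3 and 23.3 CPM in WT 1 to 5 (log2 fold change 0.00 ± 0.08). In both genes the groups overlapped. Psmd10, which is also known as gankyrin and lies on the X chromosome, was at 11.8, 13.1, 11.2, 11.6 and 11.3 CPM in TfamAKO 1 to 5 and 12.5, 12.5, 11.9, 14.4 and 11.0 CPM in WT 1 to 5 (log2 fold change -0.08 ± 0.10). The pair with Kdm5d, TfamAKO 4 and 5, lay inside the range of the other TfamAKO libraries.

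The ring activator PA28, built from the products of Psme1 and Psme2 and known to rise with interferon, gave the single gene that rose. Psme2 was at 18.5, 27.4, 24.0, 25.5 and 21.6 CPM in TfamAKO 1 to 5 and 16.6, 15.2, 14.9, 18.1 and 17.2 CPM in WT 1 to 5. Every TfamAKO library lay above every WT library, with TfamAKO 1 closest to WT 4. It averaged 23.4 ± 3.45 CPM in TfamAKO and 16.4 ± 1.35 CPM in WT (SD, n = 5 each) and rose by 42.6% (log2 fold change 0.51 ± 0.11, edgeR adjusted p = 0.00327). This call held in all 23 alternatives, with log2 fold changes from 0.40 to 0.58. Psme2b, a close copy of Psme2, had 7 to 14 counts in TfamAKO libraries and 0 to 16 in WT libraries, while Psme2 had 371 to 725 in TfamAKO and 270 to 459 in WT. How Salmon divided reads between these similar sequences is not recorded in the counts, so both values are uncertain.

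Psme1 was at 31.8, 40.8, 39.8, 40.7 and 31.8 CPM in TfamAKO 1 to 5 and 32.1, 27.7, 30.9, 34.3 and 32.4 CPM in WT 1 to 5. TfamAKO 2, 3 and 4 lay above all WT libraries, and TfamAKO 1 and 5 within the WT range. Its log2 fold change of 0.23 ± 0.09 did not pass (edgeR adjusted p = 0.0714). It did pass without TfamAKO 1 (0.0266) or TfamAKO 5 (0.0273). Since the products of both genes share a ring, the ratio of their counts was compared within each library. The log2 ratio of Psme1 to Psme2 was 0.78, 0.58, 0.73, 0.67 and 0.56 in TfamAKO 1 to 5 and 0.95, 0.87, 1.05, 0.92 and 0.91 in WT 1 to 5. It was lower in all TfamAKO libraries than in any WT library, at 0.66 ± 0.10 in TfamAKO and 0.94 ± 0.07 in WT (SD, n = 5 each). By exact permutation of the 10 libraries (two-sided) the difference of -0.28 reached p = 0.00794, which 5 against 5 libraries cannot go below, or 0.0159 after adjustment over the 2 ratios tested. In the authors' normalized values the difference was -0.21 and the adjusted exact p = 0.238. Without WT 3, 4 and 5 the difference was -0.25 and the adjusted exact p = 0.0952. Before adjustment, the p of this ratio was the smallest that so few libraries allow. The adjusted p also depends on the other ratio.

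The promoter windows of Psme1 and Psme2, which lie close together on chromosome 14, are shown with the same motifs in capitals.
Psme2 (chr14:55591052-55591351, minus strand): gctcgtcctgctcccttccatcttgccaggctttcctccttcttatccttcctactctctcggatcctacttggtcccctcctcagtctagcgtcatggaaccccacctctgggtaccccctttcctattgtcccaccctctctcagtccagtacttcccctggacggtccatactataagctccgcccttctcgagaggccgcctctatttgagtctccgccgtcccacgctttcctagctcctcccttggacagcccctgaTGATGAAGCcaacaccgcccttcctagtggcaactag
Psme1 (chr14:55578244-55578543, plus strand): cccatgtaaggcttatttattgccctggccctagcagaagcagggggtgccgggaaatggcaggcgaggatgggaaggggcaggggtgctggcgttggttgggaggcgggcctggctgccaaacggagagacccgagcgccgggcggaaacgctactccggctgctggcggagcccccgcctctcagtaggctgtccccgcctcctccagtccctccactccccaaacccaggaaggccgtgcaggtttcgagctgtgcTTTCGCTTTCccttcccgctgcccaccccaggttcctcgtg

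The Psme1 window held 1 match to the interferon-stimulated response element core, just past the start site, and the Psme2 window 1 to the antioxidant response element core. Of all promoter windows in the table, 3.49% held a match to the first motif and 41.4% to the second.

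The other activators did not pass. Psme3 encodes the nuclear member of the PA28 family and was at 97.4, 106, 117, 107 and 100.4 CPM in TfamAKO 1 to 5 and 103, 102, 101, 98.3 and 103 CPM in WT 1 to 5. Its groups overlapped (log2 fold change 0.06 ± 0.06, 95% interval -0.06 to 0.18). Psme4 encodes a large single-chain activator and was at 45.2, 36.4, 39.4, 48.0 and 51.4 CPM in TfamAKO 1 to 5 and 46.6, 39.3, 41.3, 33.0 and 34.0 CPM in WT 1 to 5. It varied by 13.9% in TfamAKO and 14.3% in WT (coefficient of variation), and its log2 fold change was 0.19 ± 0.12 (edgeR adjusted p = 0.222).

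Of the inducible catalytic subunits, Psmb10 belongs to the symbols followed here, and Psmb8 and Psmb9 were listed as neighbours in the pathway. Psmb10 was at 23.8, 23.8, 22.5, 26.7 and 29.2 CPM in TfamAKO 1 to 5 and 25.6, 24.5, 22.4, 24.4 and 23.8 CPM in WT 1 to 5. TfamAKO 4 and 5 held the highest levels and the other 3 TfamAKO libraries lay within the WT range (log2 fold change 0.07 ± 0.08, edgeR adjusted p = 0.557). Relative to Psmb7, whose place its product takes, the log2 count ratio was -2.03, -2.15, -2.23, -1.96 and -1.65 in TfamAKO 1 to 5 and -2.0, -1.90, -2.03, -2.03 and -1.96 in WT 1 to 5. TfamAKO libraries lay on both sides of the WT range. The difference was -0.02 (exact permutation, two-sided p = 0.905). Without TfamAKO 4 and 5 the difference was -0.15, with an adjusted exact p = 0.0357.

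Psmb8 and Psmb9 did rise. Psmb8 was at 7.24, 11.8, 9.04, 11.9 and 7.79 CPM in TfamAKO 1 to 5 and 3.32, 3.02, 4.21, 3.70 and 3.65 CPM in WT 1 to 5, and the groups did not overlap (log2 fold change 1.42 ± 0.17, edgeR adjusted p = 8.36e-05). Psmb9 was at 2.10, 3.30, 3.75, 2.85 and 2.01 CPM in TfamAKO 1 to 5 and 1.35, 1.22, 1.25, 2.17 and 1.07 CPM in WT 1 to 5, and WT 4 lay within the TfamAKO range (log2 fold change 0.98 ± 0.25, edgeR adjusted p = 0.00992). With the choroid plexus score as a covariate, Psmb9 did not pass (adjusted p = 0.0662). Even so, per kb of transcript Psmb8 stood at 5.88 CPM per kb in TfamAKO and 2.20 CPM per kb in WT, where Psmb5, whose place its product takes, had 93.5 CPM per kb in TfamAKO and 101 CPM per kb in WT. Psmb9 stood at 2.07 CPM per kb in TfamAKO and 1.04 CPM per kb in WT, where Psmb6 had 90.2 CPM per kb in TfamAKO and 87.9 CPM per kb in WT. The microglia and macrophage markers moved in the same direction as Psme2, Psmb8 and Psmb9. Their summed level was 567 to 695 CPM in TfamAKO and 315 to 369 CPM in WT, and none of the 7 was at 0 in any library. Endothelial markers did so too, with 3 of 5 higher, where 20.8% of all genes tested rose. These 5 summed to 198 to 332 CPM in TfamAKO and 139 to 189 CPM in WT. Astrocyte markers, 4 of 7 higher, summed to 3921 to 6284 CPM in TfamAKO and 3216 to 3966 CPM in WT, with overlapping ranges. None of these markers was at 0 in any library, and the part of these cell types in the results was not tested.

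**Figure D4:**
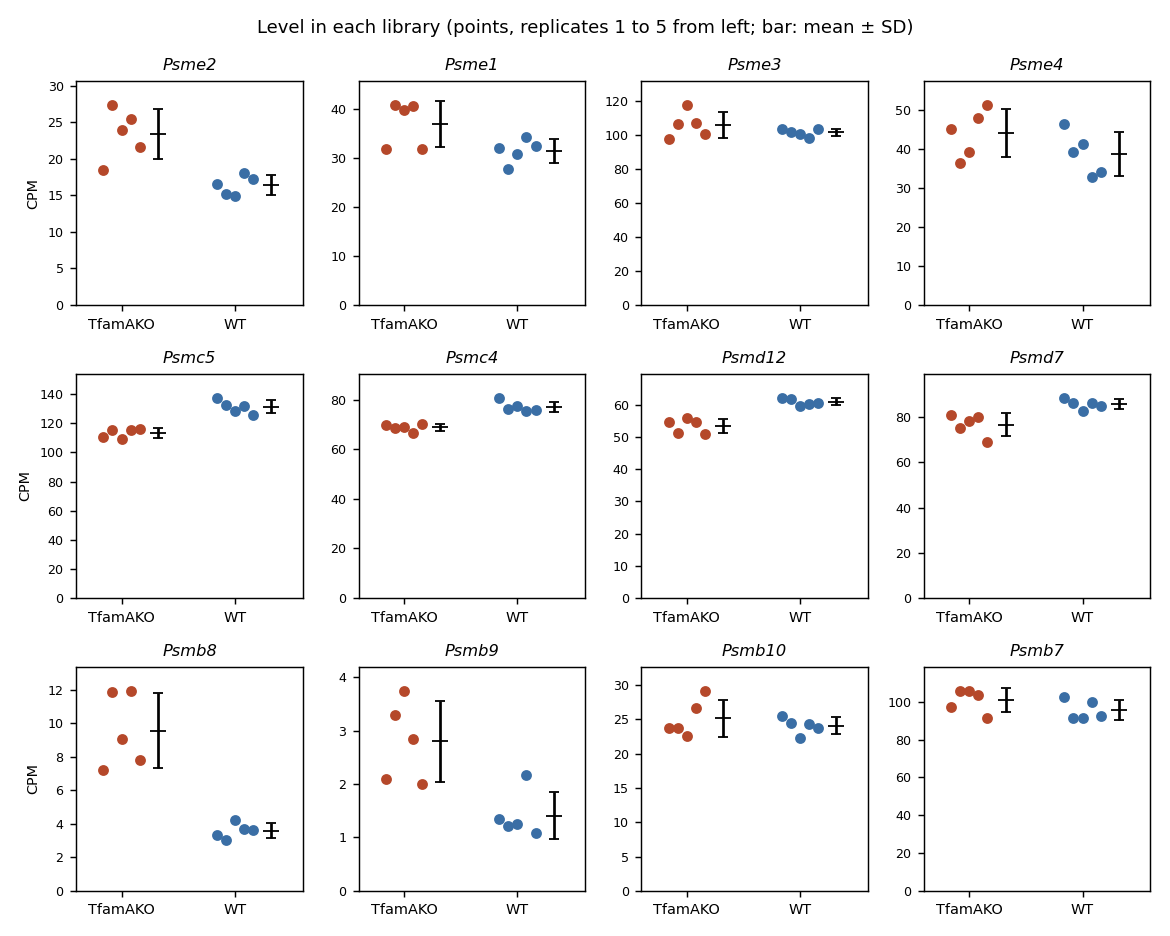
CPM in each library (points, replicates 1 to 5 from left to right, TfamAKO in red and WT in blue) with mean ± SD beside them, n = 5 each. Psme2 and Psmb8 lie higher and Psmc5, Psmc4, Psmd12 and Psmd7 lie lower in every TfamAKO library than in any WT library, while Psme3, Psmb10 and Psmb7 overlap between genotypes.

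The 2 low genes of tissue-restricted subunits were not tested. Psma8, a testis-type alpha subunit, had 4 to 15 counts in TfamAKO libraries and 2 to 11 in WT libraries. Psmb11, a thymus-type beta subunit, had 1 to 10 counts in TfamAKO libraries and 3 to 11 in WT libraries. Psmc3ip, whose product acts in meiotic recombination, averaged 1.56 ± 0.211 CPM in TfamAKO and 1.83 ± 0.337 CPM in WT (SD, n = 5 each) and did not pass (log2 fold change -0.24 ± 0.19). Psme2b did not pass either (log2 fold change 0.37 ± 0.61), at a level where its 95% interval ran from -0.95 to 1.70.

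Transcripts of several factors that control proteasome genes were higher, among them Nfe2l1 and Nfe2l2. Of 8 genes on the list of transcriptional control, 5 rose and 1 fell, with a median log2 fold change of 0.42, where 20.8% of all genes tested rose and 16.6% fell. Nfe2l1, the factor known for raising subunit genes, was at 439, 554, 519, 517 and 478 CPM in TfamAKO 1 to 5 and 313, 324, 349.6, 342 and 346 CPM in WT 1 to 5. The groups did not overlap (log2 fold change 0.58 ± 0.07, edgeR adjusted p = 5.96e-05). Nfe2l2, its relative and the main antioxidant response factor, was at 35.5, 44.0, 42.7, 41.0 and 40.2 CPM in TfamAKO 1 to 5 and 10.9, 14.8, 17.4, 21.3 and 16.3 CPM in WT 1 to 5, again with no overlap (log2 fold change 1.33 ± 0.14, edgeR adjusted p = 3.58e-05). Stat3, a cytokine-activated factor (1.67 ± 0.12), and Irf1, an interferon-responsive factor (0.72 ± 0.19), also rose on the log2 scale with no overlap. Ngly1, whose product deglycosylates the Nfe2l1 protein, passed with a log2 fold change of 0.25 ± 0.09 (edgeR adjusted p = 0.0471), and Hsf1 of the heat shock response with -0.16 ± 0.06 (0.0487). Both calls were close to the threshold. That of Ngly1 was lost without TfamAKO 1, 2, 3 or 5 or WT 1, 2, 3 or 4, with adjusted p from 0.0550 (TfamAKO 5 out) to 0.0973 (WT 3 out). That of Hsf1 was lost without TfamAKO 1, 3, 4 or 5 or WT 2, 3, 4 or 5, with adjusted p from 0.0654 (TfamAKO 5 out) to 0.114 (WT 3 out). The protease gene Ddi2, whose product cleaves the Nfe2l1 protein, and the ubiquitin ligase gene Syvn1, whose product marks it for degradation, did not pass (log2 fold changes -0.09 ± 0.12 and -0.05 ± 0.05). These are transcript levels, and the activity of the factors was not measured.

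Matches to the antioxidant response element core were common in promoters at large and in those of proteasome genes, and the difference was not tested. Of the 43 genes, 36 had a window in the RefSeq table, and 19 of these (52.8%) held at least 1 match, against 41.4% of all 27025 genes with a window. The 18 tested genes with a match had a median log2 fold change of 0.01, with 1 higher and 1 lower past the threshold. The 17 tested genes without a match had a median of 0.06, with 0 higher and 2 lower. The window of Psmb5 is shown as an example with 2 matches whose transcript level did not pass. Psma4 and Psmc6 also held 2 matches and did not pass, while Psmd12 held 2 and fell.
Psmb5 (chr14:54617946-54618245, minus strand): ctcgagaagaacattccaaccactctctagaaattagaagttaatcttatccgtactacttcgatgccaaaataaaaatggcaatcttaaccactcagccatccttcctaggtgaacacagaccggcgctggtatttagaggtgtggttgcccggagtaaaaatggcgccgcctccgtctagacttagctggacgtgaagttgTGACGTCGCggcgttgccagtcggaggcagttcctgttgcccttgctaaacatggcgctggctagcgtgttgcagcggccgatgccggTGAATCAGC

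One match of Psmb5 lay upstream of the start site (TGACGTCGC, starting 47 bases before it) and the other downstream (TGAATCAGC, starting 41 bases after it). For the gamma-activated sequence, 1 of 36 windows held a match (2.78%, that of Psmd2), against 8.47% of all. For the interferon-stimulated response element core, 4 of 36 did (11.1%, those of Psmb3, Psmd4, Psmd9 and Psme1), against 3.49% of all. A match of so few letters is a description of the sequence and no evidence of binding.

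Among assembly factors and partners outside the symbol rule, 2 of 16 genes rose and 0 fell, with a median log2 fold change of 0.01, where 20.8% of all genes tested rose and 16.6% fell. They were Psmg4, an assembly chaperone of the core barrel, and Psmf1, whose product is a proteasome inhibitor and adaptor. Psmg4 was at 6.54, 6.69, 5.99, 6.51 and 5.25 CPM in TfamAKO 1 to 5 and 4.30, 4.53, 4.16, 4.53 and 3.99 CPM in WT 1 to 5, and the groups did not overlap (log2 fold change 0.52 ± 0.12, edgeR adjusted p = 0.00465). Psmf1 was at 35.3, 38.7, 36.7, 39.6 and 38.0 CPM in TfamAKO 1 to 5 and 28.5, 29.7, 28.5, 28.5 and 29.8 CPM in WT 1 to 5, with no overlap (log2 fold change 0.38 ± 0.06, edgeR adjusted p = 0.000360). Psmg4 did not pass without WT 3, 4 and 5 (edgeR adjusted p = 0.0795) or with the choroid plexus score as a covariate (0.0532). Zfand2a, which encodes a proteasome-binding stress protein (0.14 ± 0.06), and Akirin2, whose product carries proteasomes into the nucleus (0.14 ± 0.06), were next by p and did not pass. Zfand2a did pass without TfamAKO 1 (edgeR adjusted p = 0.0469) and, by limma, on the normalized values the authors deposited (0.0351). The other 12 genes of the list, among them those of the ubiquitin receptor Adrm1, the lid component Sem1 and the maturation factor Pomp, did not pass.

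In the list of ubiquitin genes, activating enzymes and shuttles, 3 of 15 genes rose and 1 fell, a share of higher genes close to the 20.8% of all genes tested. The genes that rose were Nploc4, a cofactor of the segregase Vcp (log2 fold change 0.30 ± 0.05, edgeR adjusted p = 0.000992), the autophagy receptor Sqstm1 (0.29 ± 0.06) and the shuttle Ubqln1 (0.22 ± 0.05). Another shuttle, Ubqln4, fell (-0.32 ± 0.07). The other 11 genes, among them Vcp itself and the activating enzyme gene Uba1, did not pass. Sqstm1 (edgeR adjusted p = 0.0550) and Ubqln4 (0.0705) did not pass without WT 3, 4 and 5.

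**Figure D5:**
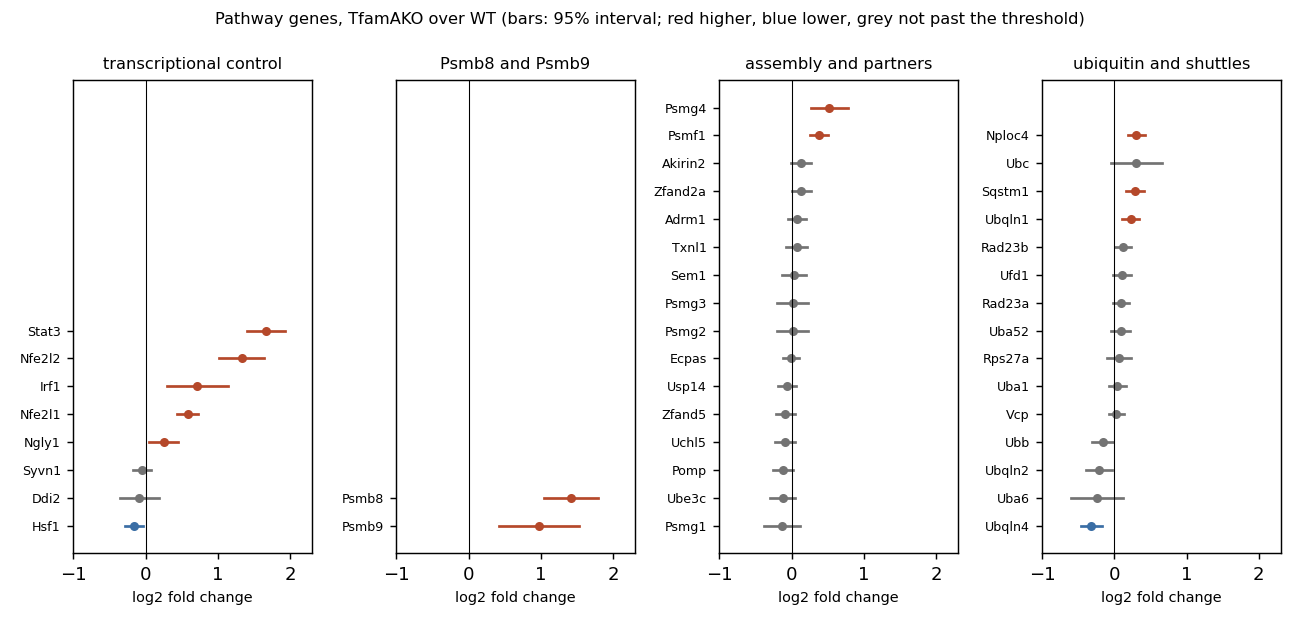
Log2 fold change (TfamAKO over WT, horizontal axes) with 95% intervals for the pathway genes outside the symbol rule, in 4 lists. Stat3, Nfe2l2 and Psmb8 lie above 1, while most assembly, partner and ubiquitin genes have intervals that include 0.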

How the data were processed

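Hippocampal RNA of 5 TfamAKO and 5 WT mice was sequenced from stranded mRNA libraries, per the labels' protocols. The authors deposited unnormalized estimated counts, all whole numbers, and a normalized signal, made in a way the sources used here do not state. Salmon (no version) and DESeq2 1.26.0 are named in the submitters' processing notes, without build or annotation. The edgeR p-values set the genotype difference against the spread between libraries of the same genotype.

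The 16180 genes that passed filterByExpr (minimum count 10; 3976 removed) were scaled by TMM and fitted by edgeR 4.0.16 (R 4.3.3) with genotype alone. Its two-sided quasi-likelihood p-values received Benjamini-Hochberg adjustment over all tested genes, and 95% intervals used the moderated degrees of freedom. Ratios of 2 genes were compared by exact permutation. Of these steps, only the edgeR fit and its calls were tested on simulated counts. All 43 symbols matched a GENCODE M21 transcript length and 36 a RefSeq promoter.

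Library values are printed for the 3 genes with the smallest p of each role, the activators and Psmb10, and up to 4 genes of each pathway list are named. Other genes were named to complete a list or after their values were seen. Genes, lists and alternatives were chosen with earlier results of these data known, and the reading of intervals against 25% and 20% was added after seeing the data. Alternatives used DESeq2 1.42.0, limma 3.58.1, other scalings and filters, a choroid plexus covariate, a replicate block and fewer libraries.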

Additional observations from a re-analysis of the deposited data

Results flagged for a closer look

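The search covered 44 genes, those with a level printed for every library and most of those named without one. Adrm1, Sem1, Pomp, Vcp and Uba1 were named but not searched. In groups of 5 libraries, the search was for a library far from the others of its genotype. Chance alone finds such a library in about 1 of 20 groups, and 4 were found in 88 groups. Tfam was at 19.6 CPM in TfamAKO 3, under the 22.7 to 23.6 CPM of the other TfamAKO libraries. Tfam was at 20.6 CPM in WT 3, under the 30.4 to 33.0 CPM of the other WT libraries. Psmb9 was at 2.17 CPM in WT 4, above the 1.07 to 1.35 CPM of the other WT libraries. Hsf1 was at 36.5 CPM in TfamAKO 2, above the 32.6 to 33.2 CPM of the other TfamAKO libraries. Apart from Psmb9, none of the subunit and activator genes searched had such a library.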

How the results depend on the processing

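Leaving out 1 library at a time gave 4828 to 7094 genes past the threshold, 1 to 7 proteasome genes higher and 3 to 4 lower, with a proteasome median of 0.021 to 0.053 on the log2 scale. The whole table gave 3908 genes with the choroid plexus score as a covariate and 2752 without WT 3, 4 and 5. Proteasome genes higher numbered 2 with DESeq2 and 2 without TfamAKO 4 and 5, and those lower 0 without WT 3, 4 and 5, where only 2 WT libraries remain. The other counts stayed within 1.5 times the value reported. The proteasome median of 0.038 was 0.007 with upper-quartile scaling, with the authors' factors and in their normalized values, and -0.006 with the choroid plexus covariate. The log2 ratio of Psme1 to Psme2 differed by -0.21 in the authors' normalized values, by -0.25 without WT 3, 4 and 5, and by -0.31 to -0.25 without single libraries. Its replicate block, a sign-flip test of the 5 same-numbered pairs, gave -0.28 with an adjusted exact p = 0.125. Before adjustment, the p of this ratio was the smallest that 5 pairs allow. The log2 ratio of Psmb10 to Psmb7 differed by -0.11 to 0.039 without single libraries and by -0.15 without TfamAKO 4 and 5. Same-numbered mice did not deviate together (correlations from -0.14 to 0.07). These deviations also carry the choroid plexus markers of WT 3, 4 and 5 and the Kdm5d of TfamAKO 4 and 5. They therefore cannot show whether the numbers pair mice, which the labels do not state. The block left 5679 genes past the threshold and 1 proteasome gene higher and 3 lower. Signs turned for genes near 0. Psmd5 had 0.039 with the choroid plexus covariate and 0.066 without WT 3, 4 and 5, and Psmd9 0.048 and 0.093, or -0.054 to 0.041 without single libraries. Psmd1 had -0.018 with upper-quartile scaling, -0.00619 with the covariate and -0.00487 to 0.038 without single libraries. Psmb10 had -0.067 with the authors' factors, -0.071 in their normalized values (pseudocount 1; -0.070 with 5) and -0.043 without TfamAKO 4 and 5. Ddi2 had 0.16 with the authors' factors, 0.17 and 0.17 in their normalized values (pseudocounts 1 and 5) and 0.041 without WT 3, 4 and 5, where Syvn1 had 0.018 and Psme2b -0.16. With the choroid plexus covariate Psme2b had -0.33. The cause of these changes was not tested.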
